A study of Mus musculus with 2 samples.

Results

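The genes described here are 36 members of the p53 pathway, listed by name and grouped by function into p53 with its feedback regulators, cell cycle arrest, apoptosis, metabolism and DNA repair. Of the 36 genes, 33 were matched by Ensembl identifier in the count tables of 24223 genes, and all 33 had at least 1 CPM in at least 1 library. CPM are counts scaled to a common library size, and 1 CPM was worth 37.6 counts in DAC and 32.02 in control. Pmaip1, Perp and Sesn3 were not analysed here. The study treated CT26, a colon carcinoma line of BALB/c mouse origin, with decitabine (DAC), a cytosine analog that traps DNA methyltransferases, and sequenced the poly-A RNA. In the DAC group, cells received 1 μM DAC every 24 h over 3 days and were collected after 24 h in drug-free medium. The control group was the same line, handled alongside but with no drug. Each group was 1 library from 1 line, so no difference below has a replicate check, and no p-value is given. Library totals were 35163420 counts for DAC and 34221886 for control.

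p53, encoded by Trp53 in mice, is a transcription factor that is stabilized when DNA is damaged or replication is disturbed. It induces inhibitors of the cell cycle, proapoptotic proteins and repair enzymes, and also its own ubiquitin ligase Mdm2, which closes a negative feedback loop. DAC is incorporated into newly made DNA, where the trapped methyltransferase forms a protein adduct that can engage this pathway.

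Counts were scaled with edgeR's TMM factors, and each ratio below is CPM in DAC over CPM in control. A gene was called higher or lower when this ratio was at least 2 or at most 0.5 and its exact (Clopper-Pearson) 95% counting interval, given in parentheses, lay on one side of 1. Such intervals cover counting error only and say nothing of variation between cultures. RNA was taken from whole cultures, so fewer cells that express a gene and less RNA per cell cannot be told apart.

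DAC reduces methylation at CpG dinucleotides, so the bases before the start sites of the most different members, with Cdkn1a, Ccng1 and Mdm2, are shown from RefSeq on GRCm38.p6. Each run is 250 bases, 5′ to 3′ on the gene's strand, and ends 1 base before the annotated start. In the first 6 the capitals mark CpG. The lines give Gadd45a and Aen, with the lowest ratios, then Gdf15 and Gadd45b, with the highest, then Mdm2 and the downstream start of Cdkn1a. In the last lines, the upstream start of Cdkn1a and Ccng1, capitals mark a match to the p53 response element.
Gadd45a (chr6:67037408-67037657, minus strand): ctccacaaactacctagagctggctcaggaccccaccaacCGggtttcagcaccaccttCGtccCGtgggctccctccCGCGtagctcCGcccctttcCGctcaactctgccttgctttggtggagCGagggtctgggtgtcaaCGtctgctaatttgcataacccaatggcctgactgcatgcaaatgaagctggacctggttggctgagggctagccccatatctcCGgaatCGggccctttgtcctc
Aen (chr7:78895677-78895926, plus strand): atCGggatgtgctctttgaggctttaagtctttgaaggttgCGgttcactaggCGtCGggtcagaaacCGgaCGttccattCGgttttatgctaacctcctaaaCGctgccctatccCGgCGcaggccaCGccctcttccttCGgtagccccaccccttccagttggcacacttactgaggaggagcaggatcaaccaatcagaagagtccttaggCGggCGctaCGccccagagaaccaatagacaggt
Gdf15 (chr8:70632457-70632706, minus strand): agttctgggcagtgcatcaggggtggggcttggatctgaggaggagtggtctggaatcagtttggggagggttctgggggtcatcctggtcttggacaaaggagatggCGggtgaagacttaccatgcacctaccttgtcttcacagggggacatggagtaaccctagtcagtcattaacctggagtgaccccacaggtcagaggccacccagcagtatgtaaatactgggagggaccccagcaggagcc
Gadd45b (chr10:80929841-80930090, plus strand): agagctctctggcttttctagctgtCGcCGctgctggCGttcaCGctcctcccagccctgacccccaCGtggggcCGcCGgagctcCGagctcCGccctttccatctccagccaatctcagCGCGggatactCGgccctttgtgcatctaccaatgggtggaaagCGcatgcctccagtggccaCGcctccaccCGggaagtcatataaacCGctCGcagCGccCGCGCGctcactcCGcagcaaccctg
Mdm2 (chr10:117710759-117711008, minus strand): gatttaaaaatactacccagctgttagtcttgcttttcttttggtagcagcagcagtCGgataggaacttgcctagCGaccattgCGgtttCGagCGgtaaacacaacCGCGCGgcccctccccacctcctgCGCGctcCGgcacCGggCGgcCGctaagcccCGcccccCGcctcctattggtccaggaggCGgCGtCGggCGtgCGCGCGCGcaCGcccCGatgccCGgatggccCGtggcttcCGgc
Cdkn1a, downstream start (chr17:29093519-29093768, plus strand): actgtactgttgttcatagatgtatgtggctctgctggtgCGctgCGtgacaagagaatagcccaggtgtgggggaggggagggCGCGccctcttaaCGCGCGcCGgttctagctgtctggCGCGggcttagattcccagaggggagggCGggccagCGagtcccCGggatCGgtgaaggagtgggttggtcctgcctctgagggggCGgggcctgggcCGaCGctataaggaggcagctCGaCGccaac
Cdkn1a, upstream start (chr17:29090729-29090978, plus strand): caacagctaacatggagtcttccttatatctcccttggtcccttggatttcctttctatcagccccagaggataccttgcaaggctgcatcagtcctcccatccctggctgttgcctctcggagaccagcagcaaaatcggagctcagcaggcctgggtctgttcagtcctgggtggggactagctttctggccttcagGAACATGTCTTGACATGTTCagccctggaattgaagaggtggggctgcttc
Ccng1 (chr11:40755287-40755536, minus strand): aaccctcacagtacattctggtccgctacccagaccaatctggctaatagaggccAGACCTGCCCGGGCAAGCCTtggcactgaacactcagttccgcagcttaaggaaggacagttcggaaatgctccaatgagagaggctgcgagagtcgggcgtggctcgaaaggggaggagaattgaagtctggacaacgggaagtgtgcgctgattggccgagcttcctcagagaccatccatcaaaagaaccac

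The member farthest above control, Gdf15, had the fewest CpGs of those shown, with 1 in its 250 bases, and the other called member above control, Gadd45b, had 22. On the lower side Gadd45a had 11, Aen 15 and Mdm2 29. Starts with 11 or more CpGs were thus present in both directions. A promoter window of 300 bases, reaching 50 bases past the start, was found for 28 of the 33 genes. These windows held a median of 22 CpGs (range 1 to 46), against 20 in 12107 windows of all genes past the CPM minimum. Across the 28 genes the CpG number and the log2 ratio had Pearson's r = -0.22 and Spearman's rho = 0.043, as a description over genes that share both libraries. Gdf15, with 1 CpG and the highest ratio, is included, and no value without it is given. Cdkn1a entered with the 2 CpGs of its upstream window, where its downstream window held 23. Methylation at these promoters was not analysed here.

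A p53 response element is a pair of decamer half-sites. The search took the consensus half-site by name, which reads the same on both strands, and a pair had to be adjacent with at most 1 of 20 letters off. The pair was found in 2 of the 28 windows (7.14%), those of Cdkn1a and Ccng1, against 0.0661% of the 12107 windows. In Cdkn1a it lies at positions -51 to -32 of the upstream start, which is 2790 bases upstream of the other start, and in Ccng1 at -195 to -176, where -1 is the last base shown. An exact single half-site, which may overlap such a pair, stood in 11 of the 28 windows (39.3%) and in 6.79% of the 12107. The 28 are 1 chosen window per gene, whereas the 12107 are all windows of their genes. Over all 38 windows of the members the shares were 5.26% for the pair and 34.2% for the half-site. The genes were listed for their place in the p53 pathway, so a higher share is built into the list and tests nothing. Both genes with the pair had ratios under 1, 0.663 for Cdkn1a and 0.72 for Ccng1. Elements farther from the start, such as those within introns, lie outside this window.

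**Figure D1:**
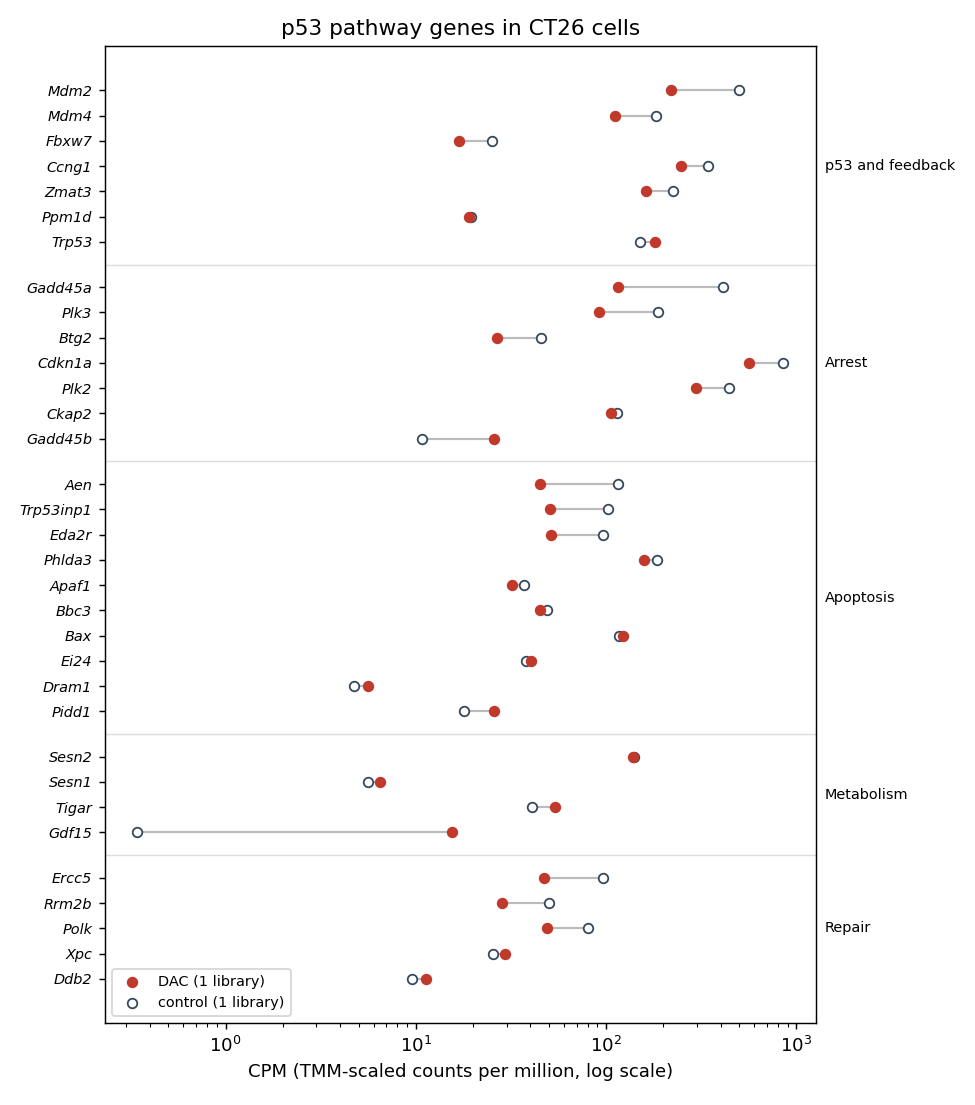
CPM on a log scale (x axis) of each of the 33 genes in the DAC library (filled red points) and the control library (open points), grouped by function and ordered by ratio within each group. Gdf15 spans the widest gap, 15.5 CPM in DAC and 0.343 CPM in control, while Mdm2, Gadd45a and Aen lie to the left in DAC.

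Of the 33 genes, 6 were called lower in the DAC library (Gadd45a, Aen, Mdm2, Plk3, Ercc5 and Trp53inp1), where 5.29% of the 13545 genes past the CPM minimum were called lower. There were 2 called higher, Gdf15 and Gadd45b, where 10.8% of all genes were. By a 1.5-fold rule with the same interval, 12 members were lower, against 15.2% of all genes, and 2 were higher, against 19.3%. Intervals lay wholly below 1 for 20 members and wholly above 1 for 8, and the shares over all genes were 40.3% and 37.3%. The median log2 ratio of the 33 genes was -0.23, and that of all 13545 genes was -0.018. By function it was -0.47 for p53 and its feedback regulators (7 genes) and -0.59 for arrest (7 genes). It was -0.18 for apoptosis (10 genes), 0.31 for metabolism (4 genes) and -0.71 for repair (5 genes). Scaled by library totals in place of TMM, which adds 0.19 to each log2 ratio and places the median of all genes at 0.18, the member median was -0.041. Under these totals the apoptosis median was 0.014, above 0. The lower calls were reduced to 2, Gadd45a and Aen, where 3.37% of all genes were called lower. The order by function also depended on GC content. After centring on it, arrest was lowest at -0.79, with apoptosis and repair both at -0.44, feedback at -0.37 and metabolism at 0.33.

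**Figure D2:**
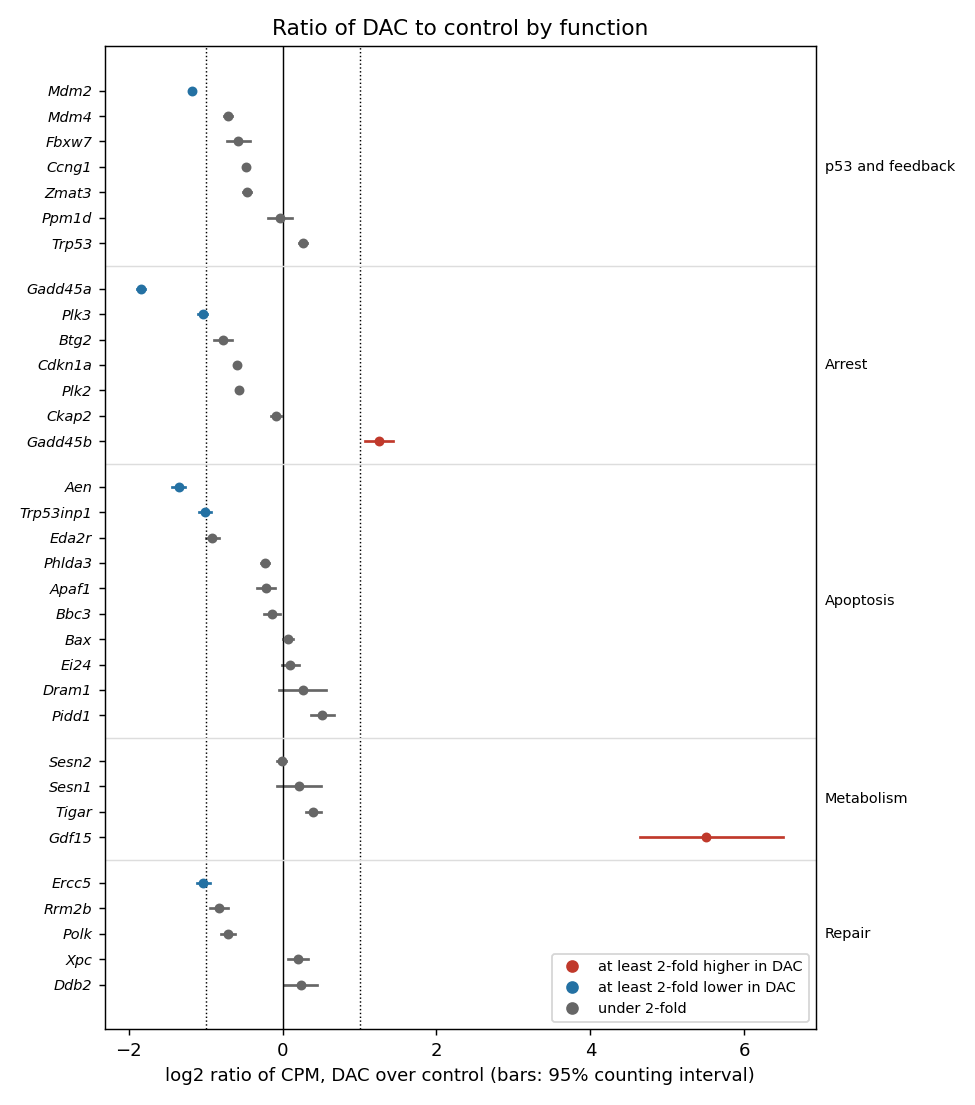
Log2 ratio of CPM, DAC over control (x axis), for each of the 33 genes by function, with 95% counting intervals as bars and dotted lines at 2-fold. The 6 genes called lower are blue and the 2 called higher red, and Gadd45a and Gadd45b fall on opposite sides of the solid line at 0.

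Within the feedback loop, Mdm2 was called lower in DAC, and the other 6 genes, Trp53 among them, were under 2-fold. Trp53, on chromosome 11 from 69580359 to 69591873 (GRCm38), had 6799 counts (181 CPM) in DAC and 4819 counts (150.5 CPM) in control, a ratio of 1.2 (1.16 to 1.25). Mdm2, the ligase that marks p53 for degradation and is itself a p53 target, lies on chromosome 10 from 117688875 to 117710758. It had 8250 counts (219.5 CPM) in DAC and 15932 counts (498 CPM) in control, 2.27-fold lower (2.21 to 2.33), and by library totals its log2 ratio of -0.99 was just under 2-fold. Mdm4, an Mdm2 relative that binds p53 and blocks its activation domain, had 4207 counts in DAC and 5868 in control, a ratio of 0.611 (0.587 to 0.636), which is under the 2-fold rule. Of the 50-base stretches of its longest transcript, 15.5% also occur in the pseudogene Mdm4-ps, which held only 24 counts in DAC and 30 in control.

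The ratio between these genes inside 1 library does not depend on the library-size factor. It is not corrected for GC content, and centring on GC content moves the genes by different amounts. The log2 ratio of Mdm2 went from -1.18 to -1.04, that of Mdm4 from -0.71 to -0.43 and that of Trp53 from 0.27 to 0.13. There were 1.21 Mdm2 counts per Trp53 count in DAC (1.17 to 1.25) and 3.31 in control (3.2 to 3.42), so the Mdm2 share was 2.72-fold lower relative to Trp53. Mdm4 stood at 0.619 counts per Trp53 count in DAC and 1.22 in control, and Cdkn1a at 3.14 in DAC and 5.69 in control. All 3 of these ratios were smaller in the DAC library.

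The other feedback members showed smaller differences, none past 2-fold. Ccng1, cyclin G1, which recruits a phosphatase to Mdm2, had 9340 counts in DAC and 11050 in control, a ratio of 0.72 (0.701 to 0.741). Zmat3, a zinc finger protein that binds RNA, had 6101 counts in DAC and 7167 in control, a ratio of 0.725 (0.701 to 0.751). Fbxw7, the substrate receptor of a ubiquitin ligase for cyclin E and Myc, had 633 counts in DAC and 804 in control, a ratio of 0.671 (0.604 to 0.746). For Ppm1d, the phosphatase that reverses damage kinase signaling, the interval included 1, with 717 counts in DAC and 625 in control and a ratio of 0.978 (0.877 to 1.09). Its sign changes to positive by library totals or after centring on GC content.

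**Figure D3:**
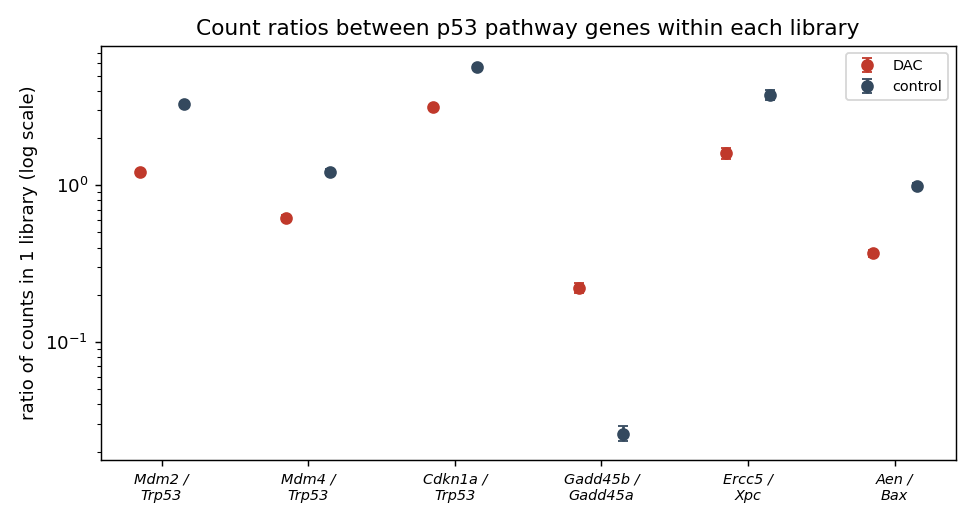
Number of counts of 1 gene per count of another in the same library (y axis, log scale), for DAC (red, left) and control (dark, right), with 95% counting intervals as bars. Mdm2 per Trp53 is 1.21 in DAC and 3.31 in control, and Gadd45b per Gadd45a is 0.222 in DAC and 0.0261 in control.

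Among the arrest genes, the Gadd45 paralogs stood in opposite directions. Gadd45a and Gadd45b encode small stress proteins that bind PCNA and p21 and activate a MAP kinase kinase kinase. Gadd45a, on chromosome 6 from 67035096 to 67037457, had 4342 counts (116 CPM) in DAC and 13250 counts (414 CPM) in control, 3.58-fold lower (3.46 to 3.71), the lowest ratio of the 33 genes. Gadd45b, on chromosome 10 from 80930073 to 80932204, had 964 counts (25.7 CPM) in DAC and 346 counts (10.8 CPM) in control, 2.37-fold higher (2.1 to 2.69). Counts of Gadd45b per count of Gadd45a were 0.222 in DAC and 0.0261 in control, an 8.5-fold difference. Neither longest transcript shares a 50-base stretch with another gene. Of the exonic bases of Gadd45a, 19.1% lie opposite exons of E230016M11Rik, which had 273 counts in DAC and 253 in control. After centring on GC content the log2 ratio of Gadd45b was 0.98, just under 2-fold, and that of Gadd45a was -1.85.

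Cdkn1a encodes p21, the cyclin-dependent kinase inhibitor through which p53 halts the cycle, and was the most abundant of the 33 genes per kilobase of exon in both libraries. It had 21323 counts (567 CPM) in DAC and 27415 counts (856 CPM) in control, a ratio of 0.663 (0.651 to 0.675). Plk3, a stress-activated polo-like kinase, was the other arrest gene called lower, with 3431 counts (91.3 CPM) in DAC and 6005 counts (188 CPM) in control, 2.05-fold lower (1.97 to 2.14). Plk2, a related kinase, had 11199 counts in DAC and 14191 in control, a ratio of 0.673 (0.656 to 0.689). Btg2, an antiproliferative factor that promotes mRNA deadenylation, had 1002 counts in DAC and 1462 in control, a ratio of 0.584 (0.538 to 0.633). The ratio of Ckap2, which encodes a spindle protein, was 0.939 (0.897 to 0.982), from 4008 counts in DAC and 3639 in control, and its log2 ratio becomes positive by library totals (0.10) or after GC centring (0.19).

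In the apoptosis group, both calls were for modulators. Of the core mitochondrial route, the members Bax, Bbc3 and Apaf1 were analysed and not called, and Pmaip1 was not analysed. Aen, a nuclease that enhances apoptosis, on chromosome 7 from 78895854 to 78911209, had 1694 counts (45.1 CPM) in DAC and 3682 counts (115 CPM) in control, 2.55-fold lower (2.41 to 2.7). Trp53inp1, a nuclear stress protein that promotes p53-dependent death, had 1905 counts (50.7 CPM) in DAC and 3265 counts (102 CPM) in control, 2.01-fold lower (1.9 to 2.13), at the edge of the rule. Just short of that edge was Eda2r, a TNF receptor family member on chromosome X that binds ectodysplasin A2, with 1921 counts in DAC and 3085 in control and a ratio of 0.531 (0.501 to 0.562).

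Bax, whose product permeabilizes the outer mitochondrial membrane, had 4612 counts (123 CPM) in DAC and 3737 counts (117 CPM) in control, a ratio of 1.05 (1.01 to 1.1). For Bbc3, the BH3-only protein PUMA, the counts were 1683 in DAC and 1577 in control, a ratio of 0.909 (0.849 to 0.975). Apaf1, the scaffold of the apoptosome, had 1203 counts in DAC and 1192 in control, a ratio of 0.86 (0.793 to 0.933). None of these core genes passed the 1.5-fold rule. The log2 ratios of Bax and Bbc3 change sign with the scaling, to -0.33 after GC centring for Bax and to 0.055 by library totals for Bbc3, which was at -0.54 after GC centring. Of the stretches of Bax, 13.8% occur also in the overlapping gene Gm45808. Counts of Aen per count of Bax were 0.367 in DAC and 0.985 in control.

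Pidd1, which assembles the complex that activates caspase-2, had the highest ratio of the group at 1.43 (1.29 to 1.58), with 966 counts in DAC and 577 in control. Phlda3, an inhibitor of Akt, had 5918 counts in DAC and 5925 in control, a ratio of 0.851 (0.821 to 0.883). The intervals of Ei24, an endoplasmic reticulum protein, and Dram1, a lysosomal protein that promotes autophagy, included 1. Ei24 had a ratio of 1.07 (0.994 to 1.16), from 1524 counts in DAC and 1211 in control, and Dram1, at 212 counts in DAC and 151 in control, had 1.2 (0.967 to 1.48).

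Gdf15, a secreted stress cytokine of the TGF-β family, was the exception in size among all 33 genes. It lies on chromosome 8 from 70629393 to 70632456 and had 584 counts (15.5 CPM) in DAC and 11 counts (0.343 CPM) in control, a ratio of 45.2 (25.1 to 91.1). This log2 ratio of 5.5 stood at percentile 99.7 of the 13545 genes. The control value rests on 11 counts, so the width of the interval comes from that library. Gdf15 passed the CPM minimum through DAC alone, so a lower call was not open to it. The metabolic regulators of the group were not called. Tigar, which lowers glycolytic flux, had 2022 counts in DAC and 1306 in control, a ratio of 1.32 (1.23 to 1.42). Sestrins restrain mTORC1 signaling, and Sesn2 had 5224 counts (139 CPM) in DAC and 4489 counts (140.2 CPM) in control, a ratio of 0.992 (0.953 to 1.03). Sesn1, at 243 counts in DAC and 179 in control, had a ratio of 1.16 (0.95 to 1.41). The log2 ratio of Sesn2 was 0.18 by library totals and -0.28 after GC centring, so its sign depends on the scaling.

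Among the 5 repair genes, 1 was called lower, and intervals lay wholly below 1 for 3 and wholly above 1 for 2. Ercc5, the XPG endonuclease that cuts 3′ of a lesion in nucleotide excision repair, had 1765 counts (47 CPM) in DAC and 3074 counts (96 CPM) in control, 2.04-fold lower (1.93 to 2.17). Rrm2b, the p53-inducible subunit of ribonucleotide reductase that supplies deoxynucleotides, had 1064 counts in DAC and 1607 in control, a ratio of 0.564 (0.522 to 0.61). Polk, a translesion polymerase, had 1841 counts in DAC and 2569 in control, a ratio of 0.611 (0.575 to 0.649). The damage recognition genes were those with intervals above 1. Xpc had 1105 counts in DAC and 819 in control, a ratio of 1.15 (1.05 to 1.26), and Ddb2 had 424 in DAC and 307 in control, a ratio of 1.18 (1.01 to 1.37). Of the exonic bases of Ddb2, 23.8% lie opposite exons of Acp2, a gene with 1648 counts in DAC and 1823 in control, and without a stated strand setting, reads of such antisense partners cannot be told apart. Counts of Ercc5 per count of Xpc were 1.6 in DAC and 3.75 in control.

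**Figure D4:**
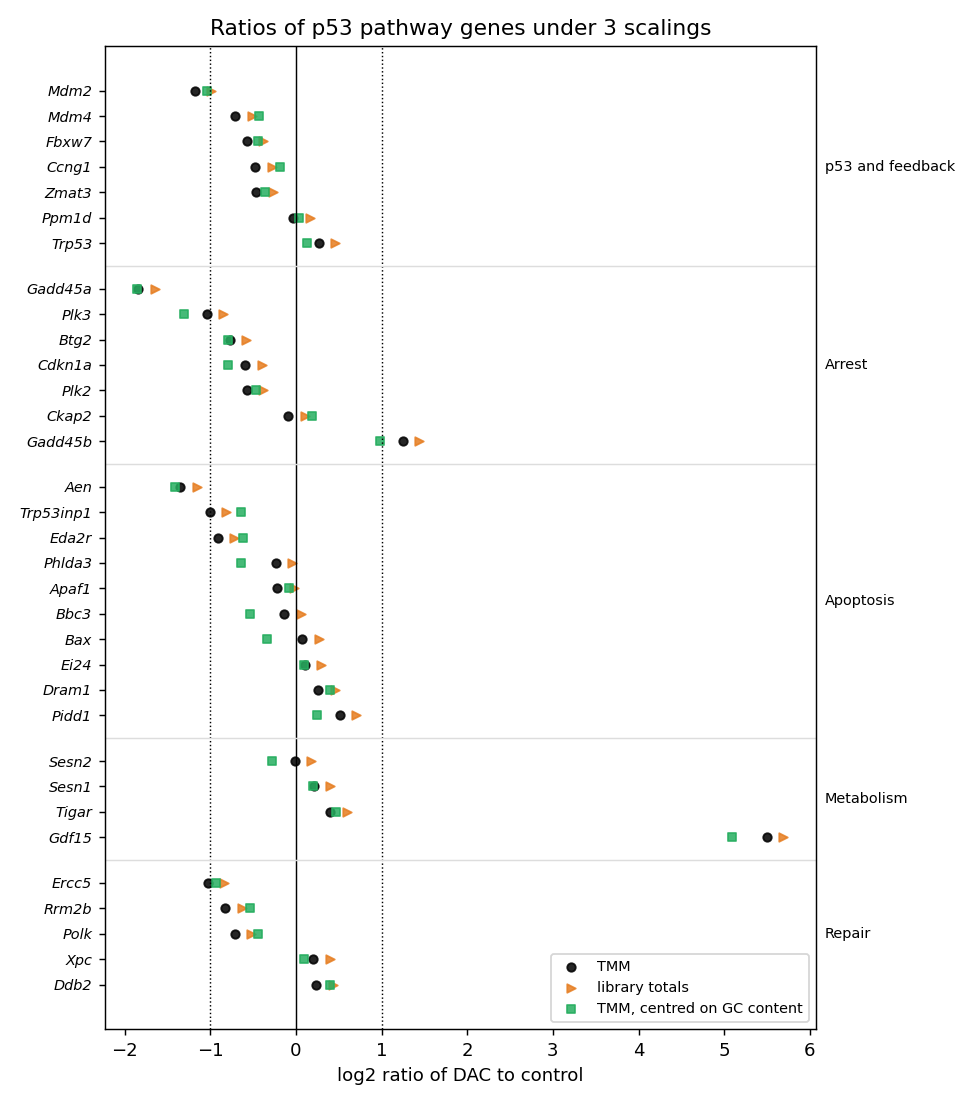
Log2 of the CPM in DAC over that in control on the x axis, for the 33 genes under TMM (black circles), library totals (orange triangles) and TMM with centring on GC content (green squares), with dotted lines at 2-fold. Gadd45a and Aen lie left of the 2-fold line under all 3, while Ercc5 and Trp53inp1 do so only under TMM.

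Base composition moved with these ratios. Over the 33 genes, the GC content of the longest transcript and the log2 ratio had Pearson's r = 0.41 and Spearman's rho = 0.38, and 0.34 and 0.34 over 32 genes without Gdf15. Over 13518 genes the values were 0.23 and 0.33, and all of these are descriptions over genes of the same libraries. Trp53inp1 (38.8% GC), Rrm2b (39.4%) and Eda2r (40.9%) were among the AT-rich members with low ratios. Ccng1 (40.8%) had a higher ratio of 0.72, and the lowest ratios were those of Gadd45a (49.8%) and Aen (51.6%). After centring log2 ratios within 20 bins of GC content, 4 genes were called lower, Mdm2, Gadd45a, Plk3 and Aen, against 4.43% of all genes. Gdf15 was the 1 gene called higher, against 10.3%, and the member median was -0.37. The median of all genes was then 0.0002, which the centring sets near 0. What part base composition has in the ratios was not tested.

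Other genes of the pathway, outside the 36, are set against the 5.29% of all genes called lower and the 10.8% called higher, and neither list below stands clear of these shares. Of 21 upstream regulators and cofactors, 18 passed the CPM minimum, and 1 was called lower and 0 higher. That gene was Atr, the replication stress kinase, with 1266 counts in DAC and 2249 in control, 2.08-fold lower (1.94 to 2.23). Usp7, a deubiquitinase of Mdm2 and p53 and the most abundant of the list per kilobase, had a ratio of 0.722. The list's median log2 ratio was -0.23. Of 36 further p53 targets, 33 passed the minimum, and 3 were called higher and 1 lower, with a median of 0.03. The higher ones were sparse in control: the metalloreductase gene Steap3 had 109 counts in DAC and 18 in control (ratio 5.16, 3.12 to 9.03). The glutaminase gene Gls2 had 182 in DAC and 46 in control (3.37, 2.43 to 4.77), and the death receptor gene Fas 46 in DAC and 18 in control (2.18, 1.24 to 3.99). Steap3 and Fas, each at 0.562 CPM in control, passed the minimum through DAC alone, so only a higher call was open to them. Slc19a2, a thiamine transporter gene, was 2.72-fold lower (2.59 to 2.86), with 2198 counts in DAC and 5092 in control. Rps27l, a ribosomal protein paralog and the most abundant of the list per kilobase of exon, had a ratio of 0.821.

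p53 also lowers cell cycle genes indirectly, through p21 and the DREAM repressor complex. Of 14 such genes, 0 were called higher, against 10.8% of all genes, and 0 lower, against 5.29%, a list too short to read those counts as a difference. The median log2 ratio was -0.12. Their ratios ran from Mki67, a proliferation marker at 0.634 (0.62 to 0.648), to Mybl2, a cell cycle transcription factor at 1.6 (1.51 to 1.7). Top2a, a topoisomerase and the most abundant of them per kilobase in control, had 0.765, and Cdc20, a mitotic activator, the most abundant in DAC, had 1.43.

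Over the whole tables, reference genes differed among themselves. Gapdh had a ratio of 0.997 and Actb 1.4, and of 10 such genes 0 were called, with log2 ratios between -0.95 and 0.84. Of 10 colon epithelial markers, 8 were in the tables. Krt18 had 3579 counts in DAC and 1797 in control, and Krt8 had 4445 counts in DAC and 5 in control. The defining markers Cdh1, at 9 counts in DAC and 0 in control, and Vil1, at 12 counts in DAC and 0 in control, were close to absent, so the epithelial label rests on keratins. The summed level of the epithelial list was 258 CPM in DAC and 75.9 CPM in control, and 3 of the 4 past the minimum, Krt8, Krt19 and Krt20, were called higher. Krt8 (0.156 CPM in control) and Krt19 (0.375 CPM in control) passed the minimum through DAC alone, so only a higher call was open to them. Muc2, under the minimum in both libraries, had 6 counts in DAC and 21 in control. Of 6 mesenchymal markers, 2 were called lower, Fn1 and Snai2, and the summed level was 3421 CPM in DAC and 8121 CPM in control. Fn1 alone held 1742 CPM in DAC and 6577 CPM in control, while Vim (ratio 1.15), Sparc (1.16) and Cdh2 (1.04) had ratios above 1, and the 6 markers had a median log2 ratio of -0.038. Of 8 immune markers, 3 were in the tables, at a summed 3.43 CPM in DAC and 1.66 CPM in control, and 4 endothelial markers summed to 0.985 CPM in DAC and 0.906 CPM in control. Most of the immune sum in DAC was Cd79a, a B cell receptor subunit at 2.98 CPM in DAC and 0.593 CPM in control. It had 112 counts in DAC and 19 in control, a ratio of 5.02 (3.07 to 8.66). It was the 1 immune marker past the minimum, through DAC alone, and was called higher, the only call open to it. The largest immune marker in control was Lyz2, under the minimum in both libraries. Lyz2 had 17 counts in DAC and 31 in control (ratio 0.467, 0.243 to 0.871). The pan-leukocyte marker Ptprc was at 0 counts in DAC and 3 in control. The part of these marker differences in the ratios of p53 pathway genes was not tested.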

How the data were processed

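Poly-A RNA from 1 DAC-treated and 1 control CT26 culture was sequenced, and the authors deposited whole-number counts per Ensembl gene, unnormalized. Build mm10 and the tools STAR 2.5.3a, Trim Galore, StringTie 1.3.1c and DESeq, with Cufflinks and FastQC, are credited to the submitters' processing notes, whereas the methods give FPKM from CASAVA with TopHat and Bowtie. Sources used here do not give the counting step or its strand setting, and the kit named does not mark strand. The unit was therefore taken from the values, which are whole and sum to a different total in each library.

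Symbols, coordinates and exon unions came from GENCODE M21 on GRCm38, with 24122 identifiers matched and 101 not. TMM factors were 1.07 for DAC and 0.936 for control (edgeR 4.0.16), which makes 1 CPM worth 37.6 counts (DAC) or 32.02 counts (control). Ratios and intervals used Python 3.11.15, scipy 1.17.1 and pandas 2.3.3. A count of 0 was read as 3 counts in a ratio, and no member had a 0. Genes needed 1 CPM in either library. The script was tested on simulated data.

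All 36 members, genes past 2-fold and the most abundant gene per kilobase of the upstream, further target and cell cycle lists, and Gapdh and Actb are named. Mki67, Mybl2, Bid, E230016M11Rik, Acp2, Mdm4-ps, Gm45808, the cell type markers and the Ccng1 and second Cdkn1a sequences were added after values were seen. Members and lists were chosen with earlier results of these data known. Alternatives tried were centring in 20 GC bins, scaling by library totals, by upper-quartile factors or by DESeq2 1.42.0, other CPM minimums, a 1.5-fold rule, thinning of the deeper library and counts divided by 3. Bisulfite sequencing and tumors were not analysed here.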

Additional observations from a re-analysis of the deposited data

How the results depend on the processing

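With 1 library per group, no replicate could be left out. No paired analysis was possible because each group has 1 library. Counting error depends on depth, and the members hold between 11 and 27415 counts per library. It is not the only limit, as variation between cultures was not measured. Of 165 member log2 ratios under other scalings or thinning, 50 lay outside the gene's reported counting interval. All 50 were under library totals or GC centring, where most members moved, and none under DESeq2 factors, upper-quartile factors or thinning. The 6 genes called lower became 2 by library totals (Gadd45a and Aen), where 3.37% of all genes were called lower. At a fold of 1.5 they were 12, against 15.2% of all genes. They were 5 with DESeq2 size factors (5.01% of all genes) or upper-quartile factors (5.15%), which leave out Trp53inp1, and 4 after GC centring (4.43%). The same 6 were kept without a CPM minimum, at a CPM of at least 5, after thinning the deeper library and with counts divided by 3. The shares of all genes there were 5.11%, 4.17%, 5.33% and 4.81%, in that order. The 2 genes called higher became 1 after GC centring, where Gadd45b had a log2 ratio of 0.98 and 10.3% of all genes were called higher. They were the same 2 elsewhere, where the share of all genes ran from 6.34% (CPM of at least 5) to 19.3% (fold of 1.5). The member median of -0.23 was -0.041 by library totals, where the median of all genes was 0.18. After GC centring it was -0.37, where that of all genes was 0.0002. Mdm2 missed 2-fold by library totals (log2 ratio -0.99), as did Plk3 (-0.85), Ercc5 (-0.84) and Trp53inp1 (-0.82). After GC centring Ercc5 (-0.93) and Trp53inp1 (-0.64) missed it. Across library totals, DESeq2 or upper-quartile factors, GC centring and thinning of the deeper library, 28 of the 33 genes kept their sign. The other 5 did not (Ppm1d, Ckap2, Bax, Bbc3 and Sesn2), and none of them was a called gene. Why the scalings differ was not tested.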
